A study of Mus musculus with 15 samples.

Results

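Interneuron lineage transcription factors are the regulators that guide GABAergic interneurons through their birth, migration and maturation. A set of 32 such regulators was followed here in single hippocampal interneurons, chosen as the rows of the deposited expression table whose gene symbol was on the list, which made 32 of the 43629 genes listed. Adarb2, an RNA-editing family gene, is in the set as a marker of the caudal lineage and not as a transcription factor. By known role the set holds 6 medial, 6 caudal and 6 shared GABAergic genes, 9 genes of subtype and maturation, and 5 broad developmental genes.

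Cytosol was drawn through a patch pipette from single interneurons of CA1 in organotypic hippocampal slice cultures, and RNA-seq was run on 1 library per cell, with 5 VGT3+, 5 Pv+ and 5 Sst+ cells. VGT3+ cells came from mice carrying VGT3-Cre (Cre driven by Slc17a8, the vesicular glutamate transporter gene VGT3), Pv+ cells from Pv-Cre mice (Pvalb, parvalbumin) and Sst+ cells from Sst-Cre mice (somatostatin), each crossed with a TdTomato reporter on the C57BL6 background, and the slices were cut from 6- to 7-day-old pups of either sex. A TdTomato reporter marks any cell in which Cre has been active, and since each type had its own line, the type and the line cannot be told apart. No animal or culture is named for a cell, which leaves 1 sample a type: no test was run, and every SD below is the spread between cells of a type.

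All 5 VGT3+ cells had Slc17a8 between 105.9 and 353.7 TPM (transcripts per 1000000), all 5 Pv+ cells had Pvalb between 3136 and 7383 TPM, and all 5 Sst+ cells had Sst between 1804 and 4539 TPM. In cells of the other types these genes stayed at or below 0.643 TPM, with 1 exception, Pvalb at 55.1 TPM in Sst+ cell 4. The depth, estimated from the TPM values in units of 1000000 reads on genes, was 15.8 to 32.2 for VGT3+, 13.2 to 18.5 for Pv+ and 14.1 to 22.4 for Sst+ cells. A median VGT3+ cell had 9092 genes above 0 (5463 to 9577), a median Pv+ cell 9934 (8439 to 11156) and a median Sst+ cell 7849 (7226 to 10191). The lowest numbers of all cells were 5463 in VGT3+ cell 3 and 6005 in VGT3+ cell 4. The sample titles of VGT3+ cells 1 to 3 carry the code G556, and those of the 12 other cells carry G709, so values from G709 alone are given beside the VGT3+ differences of at least 2-fold. RNA of microglia was present in most libraries: the summed level of 10 microglia markers had a median of 5795 TPM (133.0 to 24219) in VGT3+, 4340 TPM (4019 to 15743) in Pv+ and 287.7 TPM (0.433 to 5122) in Sst+ cells, and all 10 were above 0 in some cell of each type except Spi1, which was at 0 in all Sst+ cells. The sum of 7 oligodendrocyte-lineage markers was 0.165 to 249.2 TPM across VGT3+, 4.32 to 145.6 TPM across Pv+ and 11.5 to 1042 TPM in Sst+ cells, led on average by Mbp, the gene of a myelin protein, with Pdgfra at 0 in all VGT3+ cells and Olig2 and Mog at 0 in all Sst+ cells. Of 8 pyramidal cell markers 5 were listed at 0 in all 15 cells. Their sum was 0 to 72.3 TPM across VGT3+, 3.13 to 16.6 TPM across Pv+ and 0 to 14.2 TPM in Sst+ cells, and the highest was VGT3+ cell 1, with 67.9 TPM of Neurod6. Of 5 endothelial markers none passed 0.0661 TPM in any cell.

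Cortical and hippocampal interneurons are born in the ganglionic eminences of the embryonic ventral forebrain and migrate from there. The medial eminence is marked by Nkx2-1, which turns on Lhx6, and Lhx6 acts through Sox6 and Satb1 in cells that become parvalbumin and somatostatin interneurons. The caudal eminence gives rise to interneurons such as those that contain cholecystokinin or vasoactive intestinal peptide, and its cells are marked by Prox1, Nr2f2, Sp8 and Adarb2. The Dlx genes are used by both lineages to establish the GABAergic fate.

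Of the caudal genes, Adarb2, Nr2f2 and Sp8 were found in VGT3+ cells and were at or near 0 in the other types. Adarb2, an inactive relative of the RNA-editing deaminases, had 45.6, 94.3, 171.2, 18.4 and 16.6 TPM in VGT3+ cells 1 to 5, against 0 in Pv+ cells 1 to 4, 0.0135 TPM in Pv+ cell 5 and 0 in all 5 Sst+ cells. The lowest VGT3+ value was backed by an estimated 1299 reads, while the value in Pv+ cell 5 was that of about 1 read (estimate 1.36). The groups did not overlap. At the depths estimated here 3 reads of Adarb2 would have come to between 0.0186 and 0.0395 TPM, a limit that covers counting error only. Nr2f2, the orphan nuclear receptor COUP-TFII, had 35.3, 33.2, 123.0, 0.389 and 41.0 TPM in VGT3+ cells 1 to 5, against 0 in every Pv+ cell and 0, 0, 0, 0.0980 and 0.576 TPM in Sst+ cells 1 to 5. Here VGT3+ cell 4 stood far below the other VGT3+ cells and fell under Sst+ cell 5, so the groups overlapped by 1 cell. Sp8, a zinc finger factor of the Sp family, had 1.63, 44.1, 19.1, 0.682 and 24.9 TPM in VGT3+ cells 1 to 5 and was listed at 0 in all 10 Pv+ and Sst+ cells, where 3 reads would have come to between 0.0535 and 0.114 TPM. VGT3+ cell 4 was again the lowest, with an estimated 21.4 reads of Sp8. In that cell the microglia markers summed to 20444 TPM and 6005 genes were above 0. VGT3+ cell 1 had a microglia sum of 24219 TPM and 9092 genes above 0. The part of microglial RNA or of the number of genes seen in the low values was not tested.

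The stretches of DNA just upstream of Adarb2, Nr2f2 and Sp8, whose transcripts were found together in VGT3+ cells, and of Lhx6, whose transcripts were found in the other types, are shown to give the sequence context of the genes the comparison turns on. Each is the 250 bases before the start site in RefSeq (GRCm38.p6), 5′ to 3′ on the strand of the gene. Capitals mark matches on either strand to 3 motifs: the GC box bound by Sp factors (GGGCGG), the homeodomain core (TAATTA) and the nuclear receptor half-site (AGGTCA). No motif overlapped another in these 4 windows. Adarb2 lies on the plus strand (window chr13:8202616-8202865), Nr2f2 on the minus strand (chr7:70366747-70366996), Sp8 on the plus strand (chr12:118846079-118846328) and Lhx6 on the minus strand (chr2:36105409-36105658).
Adarb2: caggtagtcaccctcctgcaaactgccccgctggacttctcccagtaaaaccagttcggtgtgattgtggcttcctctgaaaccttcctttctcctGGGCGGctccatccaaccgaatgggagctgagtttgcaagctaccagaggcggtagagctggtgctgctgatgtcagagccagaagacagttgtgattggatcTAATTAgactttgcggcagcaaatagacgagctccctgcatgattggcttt
Nr2f2: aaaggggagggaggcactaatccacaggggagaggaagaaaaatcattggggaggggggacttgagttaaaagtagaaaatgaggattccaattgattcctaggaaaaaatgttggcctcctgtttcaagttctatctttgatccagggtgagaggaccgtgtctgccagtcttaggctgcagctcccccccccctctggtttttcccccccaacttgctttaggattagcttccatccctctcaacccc
Sp8: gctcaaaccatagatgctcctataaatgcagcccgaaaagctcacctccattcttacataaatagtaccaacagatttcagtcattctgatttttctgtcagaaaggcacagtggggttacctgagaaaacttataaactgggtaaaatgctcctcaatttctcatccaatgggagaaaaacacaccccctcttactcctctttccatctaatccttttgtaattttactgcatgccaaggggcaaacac
Lhx6: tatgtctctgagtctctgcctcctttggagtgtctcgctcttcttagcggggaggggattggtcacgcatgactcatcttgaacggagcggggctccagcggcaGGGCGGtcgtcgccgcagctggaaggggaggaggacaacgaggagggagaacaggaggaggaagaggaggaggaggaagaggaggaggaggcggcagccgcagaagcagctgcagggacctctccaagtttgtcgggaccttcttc
The window of Adarb2 held 1 GC box and 1 homeodomain core and that of Lhx6 held 1 GC box, while those of Nr2f2 and Sp8 held none of the 3 motifs. Of all 32851 promoter windows of this length, 32.7% held a GC box, 4.84% the homeodomain core and 14.0% the half-site. Among the 27 members with a window in the table, 11 held a GC box (40.7%), 2 the homeodomain core (Adarb2 and Nfix) and 2 the half-site (Dlx1 and Sox4). A match of letters is a description of the window and not a binding site.

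The other caudal genes varied more. Npas1, a bHLH-PAS factor, had 0.599, 26.0, 29.8, 0 and 0.161 TPM in VGT3+ cells 1 to 5, against 0 in every Pv+ cell and 0, 0, 30.2, 0 and 5.76 TPM in Sst+ cells 1 to 5. High values of Npas1 were therefore seen in 2 VGT3+ cells of code G556 and in 1 Sst+ cell. Nr2f1 (COUP-TFI), the near relative of Nr2f2, lay between 0 and 10.2 TPM across VGT3+, 0 and 5.06 TPM across Pv+ and 0 and 35.6 TPM in Sst+ cells, so the highest level of this gene was in Sst+ cell 5. Prox1, a homeodomain factor of the caudal lineage, was listed at 0 in all 5 VGT3+ cells and all 5 Sst+ cells and reached 7.92 and 0.870 TPM in Pv+ cells 4 and 5.

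**Figure D1:**
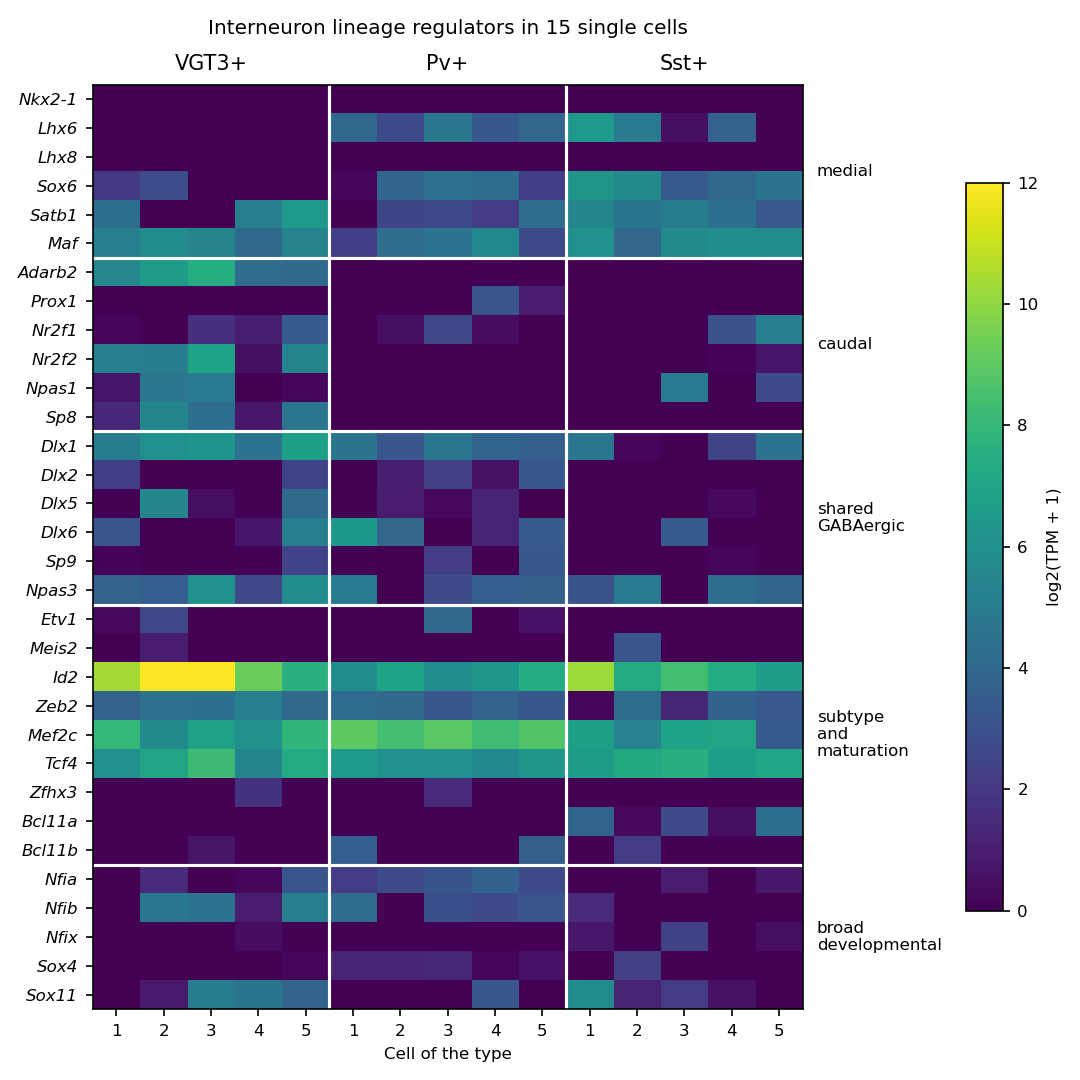
Level of the 32 members, as log2(TPM + 1), in 5 VGT3+, 5 Pv+ and 5 Sst+ cells (columns), with the members in rows by role. Adarb2 and Sp8 are above 0 in all 5 VGT3+ cells, Lhx6 is at 0 in those cells, and Id2, Mef2c and Tcf4 are high in most of the 15 cells.

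On the difference of mean log2(TPM + 1), VGT3+ minus the mean of the Pv+ and Sst+ means, 4 of the 6 caudal genes were at least 2-fold higher in VGT3+ cells, beside 20.5% of the 12825 genes that averaged at least 1 TPM: Adarb2 by 5.59, Nr2f2 by 4.54, Sp8 by 3.33 and Npas1 by 1.35. This difference depends on the added 1 TPM and understates the change of low genes, and against cells at 0 it is no fold. The largest SD of a type on this scale was 1.43 for Adarb2, 2.44 for Nr2f2 and 2.12 for Sp8, all below the difference, and 2.51 for Npas1, above it. Within code G709 alone, with 2 VGT3+ cells, the difference was 4.21 for Adarb2, 2.85 for Nr2f2 and 2.72 for Sp8, but -0.66 for Npas1, whose direction turned. The median of the 6 caudal genes was 2.34 (1.89 within G709), beside -0.13 (-0.19 within G709) over those 12825 genes. It was 3.69 without the 3 cells of highest microglia marker sum, which were VGT3+ cells 1 and 4 and Pv+ cell 3. Between Pv+ and Sst+ cells the caudal median was -0.08. Only Npas1 of the 6 passed 2-fold, lower in Pv+ cells, beside 23.2% of genes lower and 22.9% higher.

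The medial genes did not move as a block. Lhx6, the LIM-homeodomain factor of the medial lineage, was listed at 0 in all 5 VGT3+ cells, against 15, 5.51, 26.6, 8.98 and 14.8 TPM in Pv+ cells 1 to 5 and 87.4, 29.8, 0.394, 12.6 and 0 TPM in Sst+ cells 1 to 5. All 5 Pv+ cells therefore had Lhx6, while the Sst+ cells ran between the highest level of the 15 cells and 0. The Pv+ values were backed by an estimated 193 to 942 reads, and 3 reads would have come to between 0.0507 and 0.108 TPM. Because Sst+ cell 5 was also at 0, the VGT3+ cells did not lie wholly below the others, although the difference was -3.44 (-3.44 within G709, largest SD 2.81). Lhx6 reached 1 TPM in 8 of the 10 Pv+ and Sst+ cells and Adarb2 in 5 of 5 VGT3+ cells, and no cell of the 15 had both at that level.

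Sox6, an SRY-box factor that acts downstream of Lhx6, had 3.12, 6.10, 0, 0 and 0 TPM in VGT3+ cells 1 to 5, against 0.122, 13.9, 21.9, 17.2 and 3.67 TPM across Pv+ cells and 81.1, 50.6, 9.77, 15.8 and 23.3 TPM in Sst+ cells. All Sst+ cells lay above all VGT3+ cells, while the Pv+ cells overlapped both. The difference of Sox6 was -2.94 between VGT3+ and the other types (-3.91 within G709) and -1.83 between Pv+ and Sst+ cells, each larger than the largest SD of 1.81. With medians over cells in place of means the value for Pv+ minus Sst+ was -0.71.

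Satb1, a chromatin organizer needed for the maturation of somatostatin cells, had 19.5, 0.00854, 0, 34.5 and 85.6 TPM in VGT3+ cells 1 to 5, against 0, 4.67, 5.58, 3.2 and 18.4 TPM across Pv+ cells and 43.9, 24.4, 32.5, 20.9 and 9.18 TPM in Sst+ cells. The highest level of the 15 cells was thus in VGT3+ cell 5, and 2 other VGT3+ cells were at or near 0. The difference was -0.27 over all cells and 2.33 within G709, against an SD of 3.00 in VGT3+ cells. Between Pv+ and Sst+ cells it was -2.29, larger than the SD of 1.54, with Pv+ cell 5 inside the Sst+ range.

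Maf, a bZIP factor of maturing medial interneurons that microglia also express, had 35.2, 54.1, 40.3, 17.0 and 40.0 TPM in VGT3+ cells 1 to 5, against 3.62, 18.3, 22.5, 47.9 and 5.38 TPM across Pv+ cells and 65.8, 14.8, 51.0, 59.1 and 55.0 TPM in Sst+ cells. It was above 3 TPM in every cell, and its difference between VGT3+ and the other types was 0.49, below the largest SD of 1.40. Between Pv+ and Sst+ cells it was -1.63, larger than that SD. In Sst+ cell 1 Maf had 65.8 TPM where the microglia markers summed to 0.433 TPM. The part of microglial RNA in the levels of Maf was not tested. Nkx2-1 and Lhx8, the early homeodomain genes of the medial eminence, were listed at 0 in all 15 cells, where 3 reads would have come to at most 0.182 TPM for Nkx2-1 and 0.204 TPM for Lhx8.

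**Figure D2:**
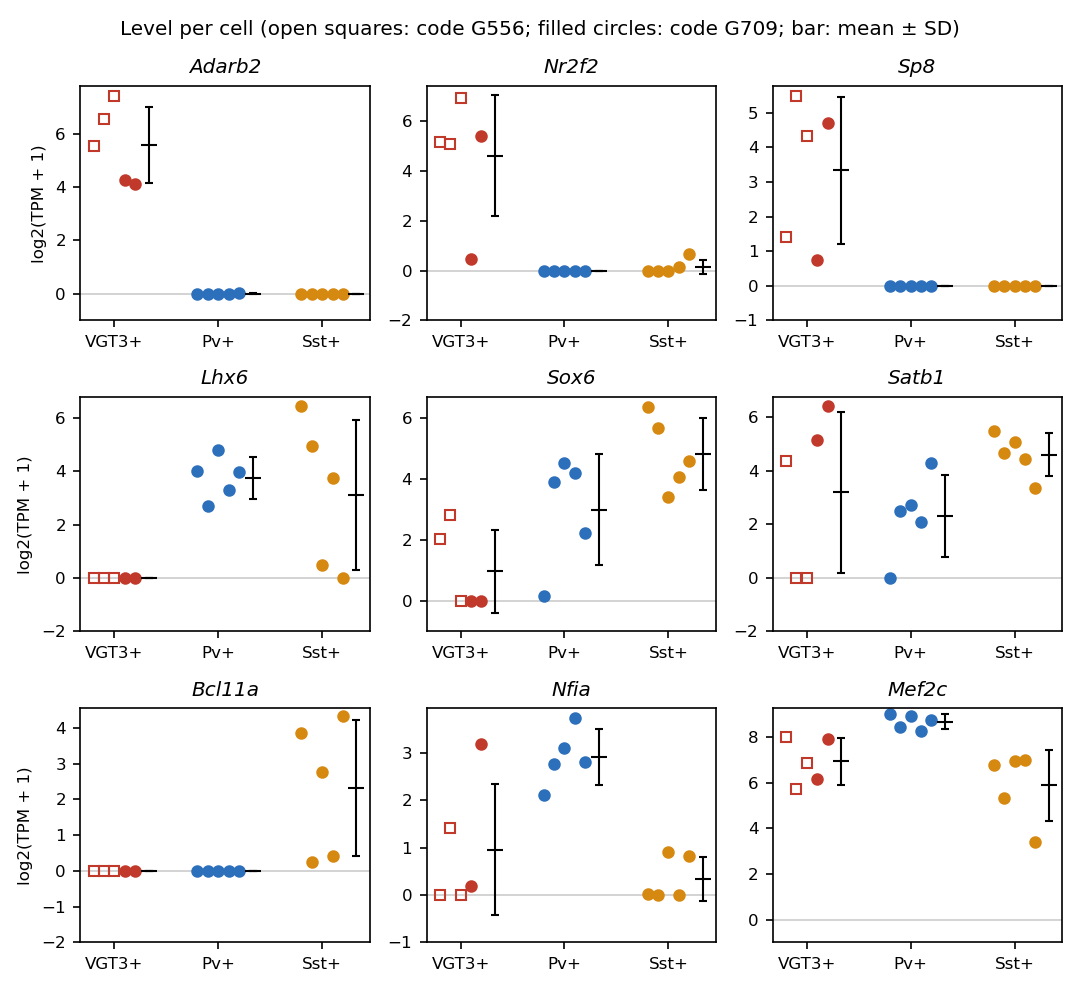
Level of 9 members per cell, as log2(TPM + 1), in VGT3+ (left), Pv+ (middle) and Sst+ cells (right), with a black bar for the mean ± SD over 5 cells. Open squares are cells of code G556 and filled circles cells of code G709. Adarb2 and Sp8 separate all 5 VGT3+ cells from the 10 others, Bcl11a is above 0 only in Sst+ cells, and Mef2c and Nfia are above every Sst+ cell in all 5 Pv+ cells.

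Of the 6 medial genes, 2 were at least 2-fold lower in VGT3+ cells (Lhx6 and Sox6), beside 20.4% of genes, and none was higher. Between Pv+ and Sst+ cells 3 of 6 were at least 2-fold lower in Pv+ cells (Sox6, Satb1 and Maf), beside 23.2% of genes. Because Nkx2-1 and Lhx8 were at 0 in every cell, the median depends on whether they are counted. It was -0.13 over all 6 genes and -1.60 over the 4 others for VGT3+ minus the other types (0 and -1.68 within G709), and -0.81 and -1.73 for Pv+ minus Sst+ cells. Cell by cell, the mean log2(TPM + 1) of the medial genes ran from 0.89 to 1.97 in VGT3+, 1.06 to 2.76 in Pv+ and 2.29 to 4.06 in Sst+ cells. The mean of the caudal genes ran from 1.08 to 4.22 in VGT3+, 0 to 0.59 in Pv+ and 0 to 1.43 in Sst+ cells. The caudal means of VGT3+ and Sst+ cells overlapped through VGT3+ cell 4 (1.08) and Sst+ cell 5 (1.43), and all VGT3+ cells lay above all Pv+ cells. The caudal mean was higher than the medial mean in VGT3+ cells 2, 3 and 5, and the medial mean was the higher in VGT3+ cell 4 and in all Pv+ and Sst+ cells, both over all genes of the lists and without Nkx2-1, Lhx8 and Prox1, which averaged under 1 TPM. In VGT3+ cell 1 the order turned with that choice: the caudal mean was 2.17 and the medial 1.93 over all genes of the lists, and without those 3 genes they were 2.61 and 2.9.

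**Figure D3:**
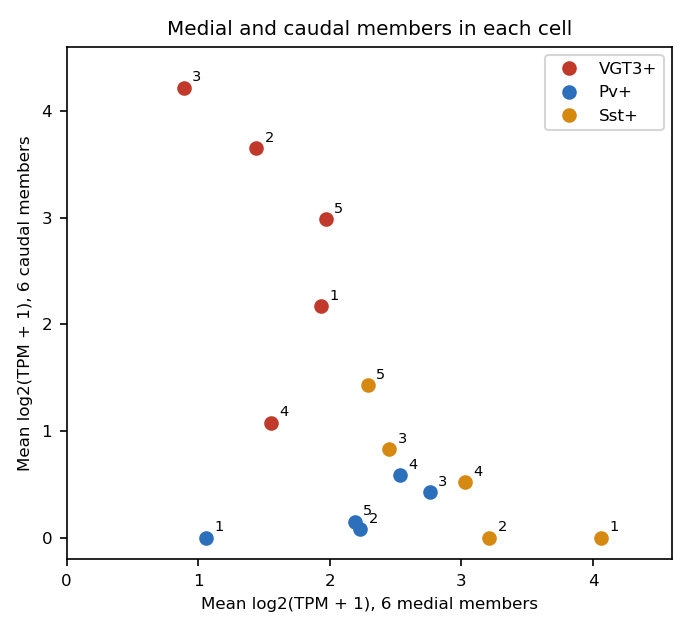
Mean log2(TPM + 1) over the 6 medial genes (horizontal) and the 6 caudal genes (vertical) in each of the 15 cells, numbered within their type. VGT3+ cells lie from 1.08 to 4.22 on the caudal axis, Pv+ cells from 0 to 0.59 and Sst+ cells from 0 to 1.43.

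The genes shared by all GABAergic lineages were strongest in VGT3+ cells for Dlx1 and uneven for the rest. Dlx1, a homeodomain factor needed for the survival of some interneuron subtypes, had 33.2, 63.1, 73.3, 22.9 and 111.3 TPM in VGT3+ cells 1 to 5, against 23.4, 8.13, 24.8, 13.5 and 11.3 TPM across Pv+ cells and 25.5, 0.103, 0, 4.55 and 22.5 TPM in Sst+ cells. Only VGT3+ cell 4 fell within the range of the other types. The difference was 2.55 (2.51 within G709, largest SD 2.29), and between Pv+ and Sst+ cells it was 1.61. Dlx1 shares 335 exon bases with Dlx1as on the opposite strand. Dlx1as lay between 3.36 and 144.0 TPM across VGT3+, 0 and 41.2 TPM across Pv+ and 0 and 32 TPM in Sst+ cells. Since the library kit does not mark strand, reads from the shared bases of both genes cannot be told apart.

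Dlx5 and Dlx6 are a neighbouring pair on chromosome 6 (chr6:6877805-6882085 on the minus strand and chr6:6863334-6868568 on the plus strand, GRCm38), and their levels differed from cell to cell. Dlx5 had 0, 43.7, 0.350, 0 and 16.5 TPM in VGT3+ cells 1 to 5, between 0 and 1.25 TPM across Pv+ cells and between 0 and 0.251 TPM in Sst+ cells. Dlx6 had 7.99, 0, 0, 0.674 and 35.2 TPM in VGT3+ cells 1 to 5, against 82.6, 14.8, 0, 1.32 and 10.0 TPM across Pv+ cells and 0, 0, 9.56, 0 and 0 TPM in Sst+ cells. VGT3+ cell 2 thus had the highest Dlx5 of the 15 cells with Dlx6 at 0, and Pv+ cell 1 the highest Dlx6 with Dlx5 at 0, while VGT3+ cell 5 had both. Dlx6os1 (ENSMUSG00000090063), the antisense transcript whose locus spans Dlx6, had 68.5, 93.4, 187.5, 0 and 141.6 TPM in VGT3+ cells 1 to 5, between 5.84 and 73.1 TPM across Pv+ cells and between 0 and 24.0 TPM in Sst+ cells. A second entry listed as Dlx6os1 (ENSMUSG00000098326) had another pattern, with 416.7 TPM in VGT3+ cell 2, 4.70 TPM in Pv+ cell 2, 731.4 TPM in Sst+ cell 5 and 0 in the 12 other cells. Dlx5 was 1.74 higher in VGT3+ than in the other types (1.80 within G709), below its SD of 2.60, and Dlx6 was 2.33 higher in Pv+ than in Sst+ cells, below its SD of 2.49.

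Dlx2, the neighbour of Dlx1, lay between 0 and 4.53 TPM across VGT3+, 0 and 8.63 TPM across Pv+ cells and at 0 in all Sst+ cells. Sp9, a relative of Sp8, lay between 0 and 4.33 TPM across VGT3+, 0 and 8.69 TPM across Pv+ and 0 and 0.142 TPM in Sst+ cells, and so did not share the restriction of Sp8 to VGT3+ cells. Npas3, a bHLH-PAS factor related to Npas1, had 13.1, 11.2, 63.5, 5.12 and 57.0 TPM in VGT3+ cells 1 to 5, against 29.3, 0, 5.89, 11.1 and 11.5 TPM across Pv+ cells and 7.51, 30.2, 0, 17.9 and 13.4 TPM in Sst+ cells. The groups overlapped, and the Npas3 difference of 1.27 (1.13 within G709) was smaller than its largest SD of 1.93. Of the 6 shared genes, 3 were at least 2-fold higher in VGT3+ cells (Dlx1, Dlx5 and Npas3), beside 20.5% of genes, with a median of 0.75 (1.12 within G709) beside -0.13. In Pv+ cells 4 of the 6 were at least 2-fold higher than in Sst+ cells (Dlx1, Dlx2, Dlx6 and Sp9), beside 22.9% of genes, with a median of 1.23 beside 0.

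Among the genes of subtype and maturation, Id2 reached the highest levels in TPM. Id2, an inhibitor of bHLH factors that marks neurogliaform and related caudal interneurons, had 1341, 3985, 4086, 609.9 and 203.2 TPM in VGT3+ cells 1 to 5, against 59.0, 125.1, 54.6, 79.4 and 165.4 TPM across Pv+ cells and 1221, 160.7, 328.8, 167.4 and 99.5 TPM in Sst+ cells. Every VGT3+ cell lay above every Pv+ cell, and Sst+ cells 1 and 3 overlapped the VGT3+ range. The difference was 3.02 over all cells and 1.22 within G709, where the highest VGT3+ cells are left out. Id2 is also expressed by astrocytes. The sum of 8 astrocyte markers was 275.7 to 3557 TPM across VGT3+, 245.2 to 1332 TPM across Pv+ and 189.8 to 2851 TPM in Sst+ cells, with all 8 markers above 0 in some cell of each type and the 2851 TPM in Sst+ cell 1, where Aqp4, a water channel of astrocytes, had 668.4 TPM. The highest astrocyte sum of the 15 cells, 3557 TPM, was in VGT3+ cell 3, which also had the highest Id2 (4086 TPM). Of that sum 3021.5 TPM was Aldoc, a gene at 111.2 TPM or more in every cell. In the same cell Aqp4 had 3.37 TPM, and Gja1 and S100b were at 0. Gfap had 266.9 TPM there and Aldh1l1 261.3 TPM, each the highest of the 15 cells. VGT3+ cell 2, with 3985 TPM of Id2, had the lowest sum of the VGT3+ cells, 275.7 TPM. The part of astrocyte RNA in Id2 was not tested. Without Sst+ cell 1 the Pv+ minus Sst+ difference of Id2 was -0.96, below 2-fold, against -1.52 with it.

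Mef2c, a MADS-box factor needed for the maturation of parvalbumin cells and also expressed by microglia, had 256.5, 51.1, 114.9, 71.2 and 239.2 TPM in VGT3+ cells 1 to 5, against 508.1, 347.6, 486.8, 304.9 and 430.1 TPM across Pv+ cells and 107.7, 39.2, 122.1, 127.5 and 9.56 TPM in Sst+ cells. All 5 Pv+ cells were above all 10 other cells. Mef2c averaged 415.5 ± 87.6 TPM across Pv+ cells and 81.2 ± 53.4 TPM in Sst+ cells (SD, n = 5 cells each), a difference of 2.79 with a largest SD of 1.55. Its highest VGT3+ levels were in cell 1, where the microglia markers summed to 24219 TPM, and in cell 5, where they summed to 133.0 TPM. The 4 Pv+ cells with microglia sums of 4019 to 4839 TPM had 304.9 to 508.1 TPM of Mef2c, while Sst+ cell 4, with a sum of 5122 TPM, had 127.5 TPM. The part of microglial RNA in the levels of Mef2c was not tested.

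Zeb2, a zinc finger homeobox factor that steers migrating medial interneurons and is also expressed by microglia, had 13.3, 21.5, 20.5, 34.2 and 16.0 TPM in VGT3+ cells 1 to 5, against 17.2, 15.4, 8.60, 12.5 and 8.98 TPM across Pv+ cells and 0.114, 17.7, 1.34, 12.1 and 9.09 TPM in Sst+ cells. Its lowest levels of the 15 cells were in Sst+ cells 1 and 3, whose microglia sums were 0.433 and 287.7 TPM, and its highest was in VGT3+ cell 4, whose sum was 20444 TPM. In Sst+ cell 2, with a sum of 176.9 TPM, Zeb2 had 17.7 TPM. Zeb2 was 1.28 higher in VGT3+ cells than in the other types (1.49 within G709), less than its largest SD of 1.75, and the part of microglial RNA in its levels was not tested.

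**Figure D4:**
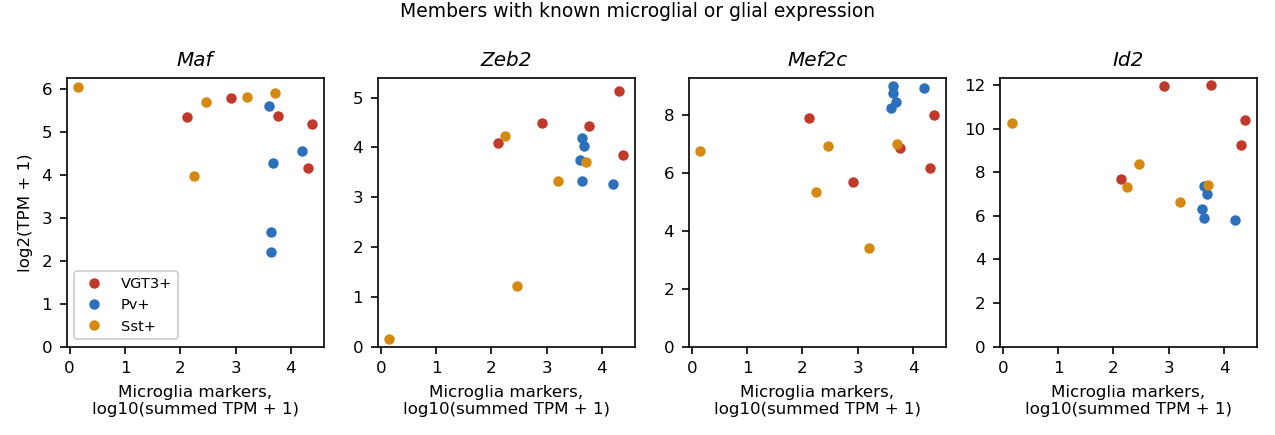
Level of Maf, Zeb2, Mef2c and Id2, as log2(TPM + 1), against the summed level of 10 microglia markers, as log10(summed TPM + 1), in each of the 15 cells. The Sst+ cell at the left, with a marker sum of 0.433 TPM, has 65.8 TPM of Maf, 107.7 TPM of Mef2c and 1221 TPM of Id2 but 0.114 TPM of Zeb2.

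Tcf4, an E protein that pairs with other bHLH factors, was among the 5 members above 0 in every cell, with Maf, Id2, Zeb2 and Mef2c. It had 64.1, 127.1, 296.1, 42.3 and 160.2 TPM in VGT3+ cells 1 to 5, against 87.5, 63.6, 66.1, 47.0 and 81.5 TPM across Pv+ cells and 97.9, 156.7, 188.8, 105.5 and 130.2 TPM in Sst+ cells. The Pv+ cells were below every Sst+ cell, and the VGT3+ cells spanned both. Tcf4 averaged 69.1 ± 15.9 TPM across Pv+ and 135.8 ± 37.5 TPM in Sst+ cells (SD, n = 5 cells each). Its difference of -0.95 exceeded the SD of 0.39 but fell short of 2-fold.

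Bcl11a (CTIP1), a zinc finger repressor, was listed at 0 in all VGT3+ and all Pv+ cells and was above 0 in each of the 5 Sst+ cells, at 0.186 to 19.3 TPM with a median of 5.81 TPM. Its Pv+ minus Sst+ difference was -2.33, larger than the SD of 1.91, and no Pv+ cell overlapped a Sst+ cell. Bcl11b (CTIP2), its relative, showed no such pattern: it lay between 0 and 0.574 TPM in VGT3+ cells, reached 11.1 and 11.4 TPM in 2 Pv+ cells with the other 3 at 0, and reached 3.25 TPM in 1 Sst+ cell. The remaining genes of this group were each seen in few cells. Etv1, an ETS factor, reached 4.95 TPM across VGT3+, 17.0 TPM across Pv+ and 0.0586 TPM in Sst+ cells. Meis2, a TALE homeodomain factor, was above 0 in 1 VGT3+ cell (0.951 TPM) and 1 Sst+ cell (7.85 TPM), and Zfhx3, a large zinc finger homeobox factor, in 1 VGT3+ cell (2.39 TPM) and 1 Pv+ cell (1.70 TPM). Of the 9 genes, 2 were at least 2-fold higher in VGT3+ cells (Id2 and Zeb2; 20.5% of genes) and 1 lower (Bcl11a, by 1.16 also within G709; 20.4% of genes). Between Pv+ and Sst+ cells 3 were higher in Pv+ cells (Zeb2, Mef2c and Bcl11b; 22.9% of genes) and 2 lower (Id2 and Bcl11a; 23.2% of genes).

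Of the 3 nuclear factor I genes, Nfia separated Pv+ from Sst+ cells and the others did not. Nfia lay between 3.36 and 12.4 TPM in Pv+ cells, with a median of 5.97 TPM, and between 0 and 0.868 TPM in Sst+ cells, with a median of 0.0158 TPM. The groups did not overlap, and the difference of 2.56 exceeded the largest SD of 0.59. In VGT3+ cells Nfia lay between 0 and 8.16 TPM. Nfib had 0, 26.9, 22.4, 0.875 and 33.8 TPM in VGT3+ cells 1 to 5, against 17.5, 0, 6.73, 5.70 and 7.83 TPM across Pv+ cells and 1.80, 0, 0, 0 and 0 TPM in Sst+ cells. Nfib was 2.31 higher in Pv+ than in Sst+ cells, above its SD of 1.56, and 1.62 higher in VGT3+ than in the other types (1.56 within G709), below its SD of 2.42. Nfix was low, at up to 0.297 TPM across VGT3+, 0.0187 TPM across Pv+ and 4.12 TPM in Sst+ cells. These factors are also made by astrocytes, whose marker sums, given above for Id2, overlapped between the types. Single markers differed in direction. Aqp4 averaged 0.677 TPM across VGT3+, 1.27 TPM across Pv+ and 155.4 ± 288.0 TPM (SD) in Sst+ cells. Aldh1l1 averaged 52.5 ± 116.7 TPM (SD), 5.48 TPM and 2.94 TPM in these types. Gfap averaged 56.2 ± 117.8 TPM (SD), 2.55 TPM and 12.9 TPM. The VGT3+ averages of Aldh1l1 and Gfap were led by VGT3+ cell 3. The part of astrocyte RNA in the levels of these factors was not tested.

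Sox11, an SRY-box factor of newly born neurons, had 0, 0.841, 32, 24.7 and 13 TPM in VGT3+ cells 1 to 5, against 0, 0, 0, 8.64 and 0.0157 TPM across Pv+ cells and 55.0, 1.23, 3.45, 0.473 and 0.0147 TPM in Sst+ cells. The highest level was in Sst+ cell 1, the library with the most Aqp4, and the part of astrocyte RNA in it was not tested. Sox11 was 1.58 higher in VGT3+ than in the other types (2.95 within G709), below its SD of 2.30. Sox4, its close relative, was above 0 in all 5 Pv+ cells at 0.116 to 1.42 TPM, and otherwise in 1 VGT3+ cell (0.175 TPM) and 1 Sst+ cell (3.77 TPM). Sox4 shares 2616 of its 4795 exon bases with the opposite-strand gene Gm26735, so its values cannot be assigned to 1 strand.

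Over the whole set, 25 of the 32 members had a mean of at least 1 TPM over the 15 cells. The 7 below it were Nkx2-1, Lhx8, Prox1, Meis2, Zfhx3, Nfix and Sox4, and they counted as not called, while the shares of genes given beside the members are over genes with such a mean only. At least 2-fold higher in VGT3+ cells than in the mean of the other types were 11 of 32 members (34.4%; 44.0% of the 25), beside 20.5% of the 12825 genes with such a mean. At least 2-fold lower were 3 of 32 (9.38%; 12% of the 25), beside 20.4% of genes. Within G709, with 2 VGT3+ cells, these counts were 13 and 3, but the share of all genes was not computed there, so they have no background. Every VGT3+ cell lay above every Pv+ and Sst+ cell for 2 of 32 members, Adarb2 and Sp8, beside 0.281% of genes, and below them for 0 of 32, beside 0.234%. The members were chosen with earlier results of these data known. The shares set beside member counts, here and for each list, are therefore descriptions only. Of the 14 genes at least 2-fold apart, 7 stayed so in all 23 alternative settings that recompute a difference: Adarb2, Nr2f2, Sp8, Dlx1, Id2, Lhx6 and Sox6. Leaving out 1 cell took 5 others below 2-fold. Npas1 was 0.69 without VGT3+ cell 2 and 0.64 without VGT3+ cell 3, and Dlx5 was 0.88 without VGT3+ cell 2. Npas3 was 0.87 without VGT3+ cell 3 or Sst+ cell 3 and 0.90 without VGT3+ cell 5 or Pv+ cell 2. Zeb2 was 0.98 without Sst+ cell 1, and Bcl11a was -0.97 without Sst+ cell 1 and -0.91 without Sst+ cell 5.

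Between Pv+ and Sst+ cells 9 of 32 members were at least 2-fold higher in Pv+ cells (28.1%; 36.0% of the 25), beside 22.9% of genes, and 7 of 32 at least 2-fold lower (21.9%; 28.0% of the 25), beside 23.2%. All Pv+ cells lay above all Sst+ cells for Mef2c and Nfia, 2 of 32 beside 1.98% of genes, and below them for Tcf4 and Bcl11a, 2 of 32 beside 3.09%. Of the 16 genes at least 2-fold apart, Satb1, Maf and Mef2c stayed so in all 17 alternative settings that recompute a difference. Leaving out 1 cell took 7 others below 2-fold. Without Sst+ cell 1, Sox11 was -0.32, Id2 -0.96 and Zeb2 0.59, and without Sst+ cell 3 Npas1 was -0.69 and Zeb2 0.86. Without Pv+ cell 5, Dlx2 was 0.95, Sp9 0.50 and Bcl11b 0.48, and Sp9 was 0.78 without Pv+ cell 3. Bcl11b was 0.49 without Pv+ cell 1 and 0.92 when Sst+ cell 1, 3, 4 or 5 was left out in turn. The 2 comparisons share the Pv+ and Sst+ cells and are set side by side only.

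**Figure D5:**
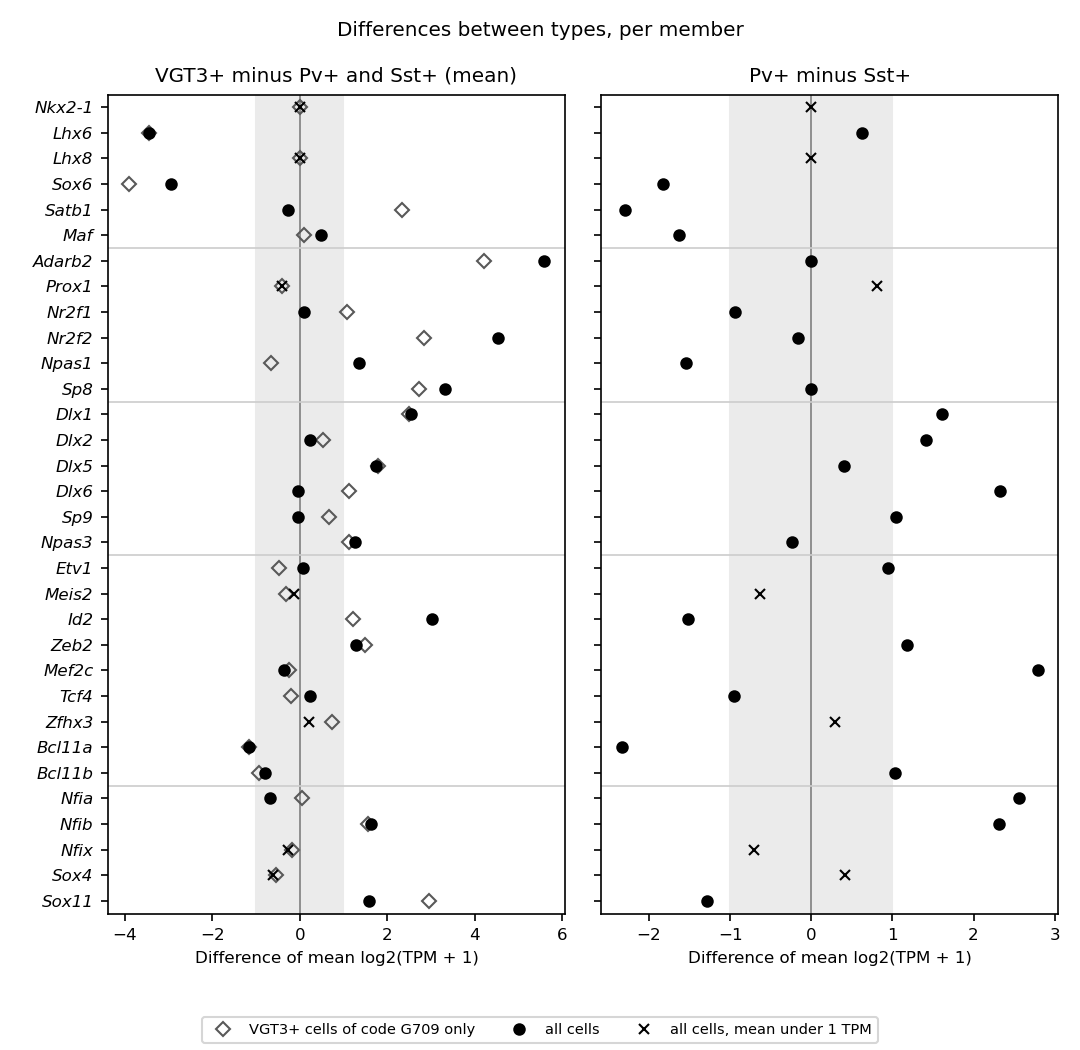
Difference of mean log2(TPM + 1) for each member, VGT3+ minus the mean of Pv+ and Sst+ (left) and Pv+ minus Sst+ (right), on separate scales. Filled circles use all cells, open diamonds only VGT3+ cells of code G709, crosses are members with a mean under 1 TPM, and the grey band holds differences under 2-fold. Among the filled circles, Adarb2 (5.59) and Lhx6 (-3.44) mark the ends on the left, and Mef2c (2.79) and Bcl11a (-2.33) on the right. The open diamond of Sox6 on the left is at -3.91.

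The number of members at 1 TPM or more in a cell was 11 to 19 in VGT3+, 13 to 18 in Pv+ and 11 to 13 in Sst+ cells. Slc32a1, the vesicular GABA transporter that every GABAergic neuron uses, was listed at 0 in VGT3+ cell 3, so a value of 0 in 1 cell can be a transcript that was not captured. Fewer transcripts in a cell and less cytosol drawn into the pipette cannot be told apart either. Exons of 14 of the 32 members share bases with a gene of the opposite strand.

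Of 21 further regulators of interneuron development, 12 had a mean of at least 1 TPM and 5 were listed at 0 in every cell. In VGT3+ cells 2 were at least 2-fold higher and 4 lower than in the other types, beside 20.5% and 20.4% of genes, with a median of 0 over the 21 and -0.70 over the 12. In Pv+ cells 4 were higher and 3 lower than in Sst+ cells, beside 22.9% and 23.2% of genes. The 6 with the highest mean included Myt1l, a factor that holds neuronal identity, at 35.7 to 121.3 TPM across VGT3+, 0.191 to 16.1 TPM across Pv+ and 30.1 to 193.9 TPM in Sst+ cells, with all Pv+ cells below all others. Ldb2, a cofactor of LIM-homeodomain proteins, reached 71.3 TPM across VGT3+ and 43.5 TPM in Sst+ cells and was at 0 in all Pv+ cells. Lmo4, a LIM-only protein, reached 50.8 TPM across VGT3+, 21.8 TPM across Pv+ and 38.4 TPM in Sst+ cells, and the types overlapped. The nuclear receptor genes Rora and Esrrg were above 0 in all Pv+ cells. Rora reached 0.0124 TPM across VGT3+, lay between 15.2 and 35.2 TPM across Pv+ and reached 0.00911 TPM in Sst+ cells, with every Pv+ cell above all others. Esrrg had 41.3 TPM in VGT3+ cell 1 and 0 in the other VGT3+ cells, lay between 7.87 and 28.9 TPM across Pv+ and reached 0.0196 TPM in Sst+ cells. Pou3f3, a POU-domain factor, reached 0.479 TPM across VGT3+ and 0.317 TPM across Pv+ and lay between 1.10 and 63.3 TPM in Sst+ cells, with every Sst+ cell above all others.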

How the data were processed

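The members and the other gene lists were chosen with earlier results of these data known. Cytosol of 15 single cells was made into cDNA with a SMART-Seq HT kit and a Nextera XT kit, neither of which marks strand. Per the study's methods and the submitters' processing notes, the authors used bcl2fastq, aligned reads to GRCm38 with HISAT2 2.1.0, counted them per Ensembl gene with HTSeq, and deposited transcripts per 1000000 (TPM); the strand setting of HTSeq is not given in the sources used here. Each cell's TPM summed to 1000000, with no scaling between cells. All 15 columns of values were used.

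Genes were matched by symbol and Ensembl ID. Levels were taken as log2(TPM + 1), with a pseudocount of 1 TPM. Differences were VGT3+ minus the mean of the Pv+ and Sst+ means, and Pv+ minus Sst+. A gene was called at a difference of at least 1 (2-fold) with a mean of at least 1 TPM over the 15 cells. Every member was named, with all 15 values where a type averaged at least 10 TPM and ranges otherwise. Of the other lists, the highest by mean TPM were named, at most 6 regulators and 4 markers a list. Some regulators and markers on the lists are not reported here and were left out of the counts and sums. Spi1, Gfap, Aldh1l1 and Gm26735 were named after their values or positions were seen, with Gfap and Aldh1l1 beyond the limit of 4 markers. Since each type counted as 1 sample, no p-value was computed. Precision rests on 5 cells a type and on depth: reads were estimated, as a step added after the values were seen, from TPM and exon lengths in GENCODE M21 (97.3% of genes matched), with 71.9 to 76.3% of the estimates below 50 reads no further than 0.01 from a whole count. Limits are the level of 3 reads. Positions are from GENCODE M21 and promoter windows from RefSeq (GRCm38.p6), which held 27 of the 32 members. Alternatives were other pseudocounts, filters, scalings and summaries, leaving out each cell, code G709 alone, and, added after the data were seen, leaving out the 3 cells with most microglial RNA. The difference function was tested on simulated data. Python 3.11.15, numpy 2.4.6, pandas 2.3.3 and matplotlib 3.10.9 were used.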

Additional observations from a re-analysis of the deposited data

Results flagged for a closer look

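Of the 77 sets of 5 cells in which a member varied, 25 had 1 cell far from the other 4 by Dixon's criterion on log2(TPM + 1). In 15 of the 25 the cell was the only one of its type above 0, which meets the criterion whatever its value. The rate of about 1 in 20 that chance gives is for values without ties and cannot be set beside these 25.

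Low cells were Maf in Sst+ cell 2 (14.8 TPM, the others 51.0 to 65.8) and Nr2f2 in VGT3+ cell 4 (0.389 TPM, the others 33.2 to 123.0). High cells beside others that were partly above 0 were Prox1 in Pv+ cell 4 (7.92 TPM), Nr2f1 in Pv+ cell 3 (5.06 TPM), Nr2f2 in Sst+ cell 5 (0.576 TPM), Sp9 in VGT3+ cell 5 (4.33 TPM), Etv1 in VGT3+ cell 2 (4.95 TPM) and Pv+ cell 3 (17.0 TPM), Nfix in VGT3+ cell 4 (0.297 TPM) and Sox11 in Pv+ cell 4 (8.64 TPM).

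Cells alone above 0 in VGT3+ were cell 2 for Meis2 (0.951 TPM), cell 4 for Zfhx3 (2.39 TPM), cell 3 for Bcl11b (0.574 TPM) and cell 5 for Sox4 (0.175 TPM). In Pv+ they were cell 5 for Adarb2 (0.0135 TPM), cell 3 for Zfhx3 (1.70 TPM) and cell 2 for Nfix (0.0187 TPM). In Sst+ they were cell 4 for Dlx5 (0.251 TPM) and Sp9 (0.142 TPM), cell 3 for Dlx6 (9.56 TPM), cell 1 for Etv1 (0.0586 TPM) and Nfib (1.80 TPM), and cell 2 for Meis2 (7.85 TPM), Bcl11b (3.25 TPM) and Sox4 (3.77 TPM).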

How the results depend on the processing

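Without each cell in turn, the number of members at least 2-fold higher in VGT3+ cells was 9 to 11 (11 with all cells) and the number lower was 2 to 5 (3 with all cells; 5 without VGT3+ cell 5). For Pv+ against Sst+ cells these counts were 7 to 10 (9) and 7 to 8 (7). The caudal median of VGT3+ minus the other types was 1.74 to 2.93 and the medial one -0.54 to 0. With a pseudocount of 10 TPM, 5 members were higher in VGT3+ cells, 1 was higher and 4 were lower in Pv+ than in Sst+ cells, and the caudal median was 0.87. With 0.1 TPM, 6 were lower in VGT3+ cells and the caudal median was 4.48. With a minimum mean of 10 TPM, which leaves fewer genes, 6 were higher in VGT3+ cells, and 4 were higher and 4 lower in Pv+ cells. With medians over cells, 7 were higher in VGT3+ cells. Without the 3 cells of most microglial RNA the caudal median was 3.69. Npas1 reversed within code G709 (-0.66). The share of all genes at least 2-fold apart was not computed under these alternatives, so these counts have no background beside them. The cause of these changes was not tested. Size factors, the table without mitochondrial and top genes and no filter left these counts within 1.5 times. Of 1200 differences of single members under alternatives, 1165 moved by less than the largest SD of a type and 34 did not. Npas1 was the 1 called difference that reversed. The 34 include all 17 alternatives of Sp8 for Pv+ minus Sst+, where the difference and the SD both stayed at 0. Leaving out 1 of 5 cells cannot move a difference by more than that SD. For those settings the outcome was fixed beforehand, so the 1165 are no measure of stability. Differences under 2-fold changed sign in 58 of the 1200, among them Satb1 (-0.27 over all cells, 2.33 within G709) and Dlx6 (-0.03 and 1.12) for VGT3+ minus the other types. Size factors shifted the median of all genes in VGT3+ minus the other types to -0.27, against -0.13 without them. Over the 1709 genes above 0 in every cell that median was 0.01 with size factors and 0.22 without. For Pv+ minus Sst+ cells the median of all genes was 0.08 with size factors and 0 without. Over the 1709 genes it was 0.05 and -0.30. No paired analysis was possible because a cell's number only names it and no test was run.

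With 5 cells a type, 1 line a type and no animal named, the spread between cells is not an error of the type. The limit of 3 reads behind a value of 0 covers counting error only, not a transcript that was not captured.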
